A study of Mus musculus with 16 samples.

Results

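Monocytes and the macrophages that come from them are recognised by a small set of genes, and 8 of these were followed through RNA-seq of mouse lung macrophages. They are Ccr2, Cx3cr1, Itgam, Cd14, Csf1r, Lyz2, Ly6c2 and S100a4. They were chosen by symbol, and all 8 were found among the 23159 gene symbols of the deposited count table. The macrophages came from bronchoalveolar lavage, a wash of the airways and alveoli, of mice that the series title calls male. The 16 libraries form 4 groups of 4. TLR3-KO injured and TLR3-KO control mice are labelled as knockouts of Tlr3, which encodes an endosomal sensor of double-stranded RNA, and WT injured and WT control mice as wild type. Injured mice had pneumonia from 500 colony-forming units of Klebsiella pneumoniae (strain 43816, serotype 2) in 30 µl, placed deep in the throat under isoflurane. The treatment of control mice is labelled as none, while the protocol names saline as the alternative to bacteria. Strain, age, the time between inoculation and lavage and the number of animals behind a library are not in the labels, so the p-values measure only the spread between these libraries.

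In the lung, resident alveolar macrophages maintain themselves in place, and infection draws further cells in from the blood. Classical monocytes leave the bone marrow through Ccr2, carry Ly6C on their surface and enter inflamed tissue with the help of beta-2 integrins, whose alpha chains include Itgam (CD11b). Once in the tissue they can take on macrophage features under signals from the CSF1 receptor. Neutrophils, the other early arrivals, also carry Itgam.

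Depth was 29667102 to 59640251 counts per library. Tlr3 averaged 0.491 and 0.529 CPM (counts scaled to a common library total) in TLR3-KO injured and TLR3-KO control libraries, against 3.44 and 3.48 CPM in WT injured and WT control libraries. Although the title names male mice, TLR3-KO control libraries 1, 2 and 3 held 42.3, 31.6 and 20.3 CPM of Xist, which is transcribed from the inactive X chromosome of females, while no other library passed 0.23 CPM. Genotype and this sign of sex cannot be told apart in those 3 libraries, so the called results that rest on them, and the S100a4 and Cx3cr1 values, are also given with TLR3-KO control 4 as the only TLR3-KO control. Summed over Xist and the Y-linked genes Ddx3y, Eif2s3y, Kdm5d and Uty, TLR3-KO controls 1, 2, 3 and 4 held 43.1, 32.8, 43.5 and 169 CPM. TLR3-KO control 3 thus held RNA of Y-linked genes beside its Xist, more than TLR3-KO controls 1 and 2 did. The reason was not tested. The libraries had the profile of resident alveolar macrophages: the 23 listed resident markers, among them Siglec5 (the table's row for SiglecF), Marco, Pparg and Fabp4, summed to 30119 to 40328 CPM, and each was counted in every library. Chi3l3 was the most abundant of them at 15200 to 21900 CPM, followed by Lpl at 4710 to 6490 CPM. The 24 listed genes of monocyte-derived and interstitial macrophages summed to 4354 to 6968 CPM, with Spp1 the most abundant at 2310 to 5220 CPM. The name "recruited" describes where the 8 genes are known from. The share of recruited cells in these samples was not tested.

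The members fell into an abundant and a scarce set. Levels of different genes were compared per kilobase of merged exons (CPM per kb). Lyz2, which encodes the lysozyme of myeloid cells, stood first at 20384 to 29248 CPM per kb over all libraries. Cd14, the co-receptor that hands bacterial lipopolysaccharide to TLR4, followed at 160 to 385 CPM per kb, and Csf1r, the receptor for the growth factor CSF1, at 48.7 to 125 CPM per kb. These ranges did not overlap. Resident alveolar macrophages are known to express Lyz2 and Csf1r as well. S100a4, a small calcium-binding protein linked to cell movement, held 1.27 to 14.0 CPM per kb and Itgam held 0.783 to 6.53 CPM per kb, ranges that overlapped. The scarcest members were Ccr2 at 0.128 to 0.699, Cx3cr1, the fractalkine receptor, at 0.0287 to 0.745, and Ly6c2 at 0.00769 to 0.550 CPM per kb, and these also overlapped one another. Ly6c2 rested on 1 to 65 counts per library and Cx3cr1 on 5 to 146, while Lyz2 never had fewer than 807332.

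**Figure D1:**
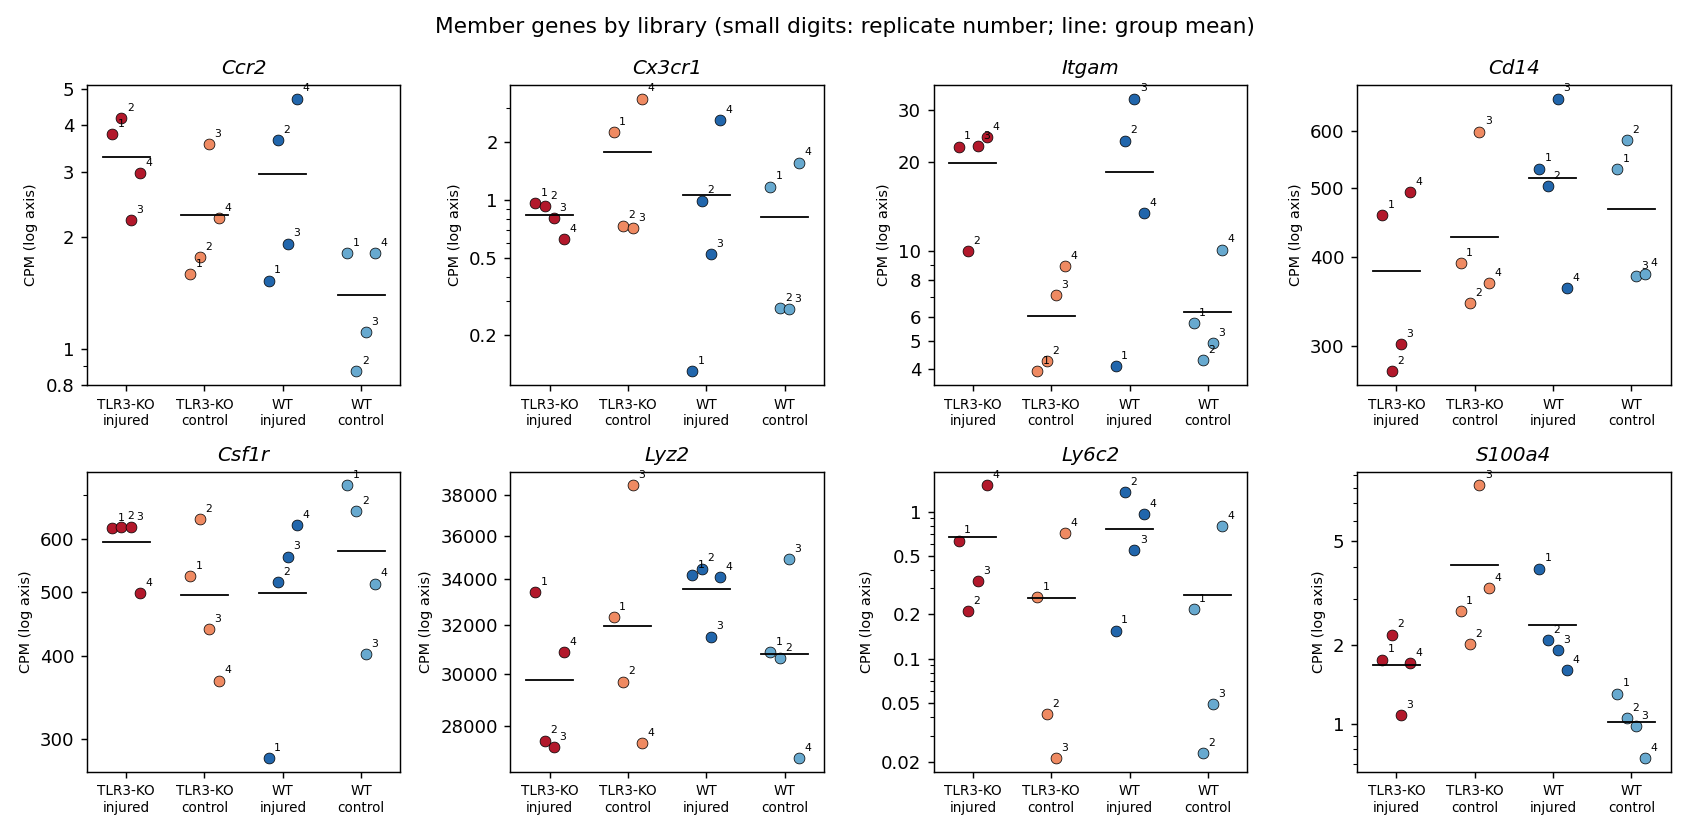
CPM of each of the 8 genes in every library, on a log axis, with TLR3-KO injured, TLR3-KO control, WT injured and WT control libraries from left to right (4 each); horizontal lines are group means and small digits are replicate numbers. Itgam is the gene whose injured libraries sit above the controls in both genotypes apart from WT injured 1, and S100a4 is higher in all 4 TLR3-KO controls (2.02 to 8.20 CPM) than in all 4 WT controls (0.740 to 1.31 CPM).

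Itgam and S100a4 were the members called in at least 1 comparison by the edgeR fit of all 16 libraries without a replicate block. Their upstream sequences are shown with the copies of 1 short run of letters marked. Both sequences hold the 100 bases before the RefSeq start (GRCm38.p6, + strand). Capitals mark GAGGAA, a form of the site bound by the myeloid factor PU.1, or its reverse complement TTCCTC. Only this form was searched, and shorter forms of the site are not marked.
Itgam, chr7:128062540-128062639: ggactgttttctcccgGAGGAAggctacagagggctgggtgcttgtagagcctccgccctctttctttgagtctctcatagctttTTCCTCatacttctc
S100a4, chr3:90603670-90603769: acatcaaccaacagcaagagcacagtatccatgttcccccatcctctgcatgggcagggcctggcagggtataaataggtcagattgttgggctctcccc
The Itgam window holds these letters at 2 places, beginning 84 and 15 bases before the start, on opposite strands. Of 32851 RefSeq promoter windows of this length, 9.82% hold at least 1 copy on either strand and 0.654% hold at least 2. The S100a4 window holds none. A match is only a description of the letters, and 6 of the 8 members had a promoter entry.

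In the mm10 genome (GENCODE M21 annotation) the genes lie on 6 chromosomes. Ccr2 (chr9:124101950-124113557, + strand, 3 exon blocks) and Cx3cr1 (chr9:119901616-120069879, - strand, 4 exon blocks) are on the same chromosome, as are Cd14 (chr18:36725067-36726798, - strand, 1 exon block) and Csf1r (chr18:61100598-61132149, + strand, 24 exon blocks). Itgam spans chr7:128062640-128118491 (+ strand, 30 exon blocks), Lyz2 chr10:117277331-117282321 (- strand), Ly6c2 chr15:75108158-75111970 (- strand) and S100a4 chr3:90603771-90606045 (+ strand). Of the merged exon bases of Itgam, 68.7% are shared with Gm49368, and of those of S100a4, 51.7% with Gm42674, each a model on the same strand without a row in the count table. For Csf1r, 15.1% of exon bases lie opposite exons of Hmgxb3, and since no strand setting is given in the sources used here, reads there could belong to either gene.

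Each gene was tested with edgeR's quasi-likelihood test across 12455 genes in 1 fit of all 16 libraries, with p-values adjusted over all of them by the Benjamini-Hochberg method and called at 0.05. All 8 members passed the filter on low counts. Pneumonia against control over the mean of both genotypes called 1 member, Itgam, where 2.34% of all genes tested were called; 2 members had an unadjusted edgeR p under 0.05 (16.4% of all genes) and DESeq2 called 1 (5.58%). TLR3-KO control against WT control called 1 member, S100a4, against 0.699% of all genes; it alone had an unadjusted p under 0.05 (19.9% of all genes) and it alone was called by DESeq2 (6.28%). Within each genotype the response to pneumonia called 0 of 8 members: in TLR3-KO mice 1.54% of all genes were called, 2 members had an unadjusted edgeR p under 0.05 (24% of all genes) and DESeq2 called 2 (7.96% of all genes), and in WT mice 0.0161% were called, 3 members had an unadjusted p under 0.05 (10.7%) and DESeq2 called 0 (1.19%). TLR3-KO injured against WT injured also called 0 members by edgeR and by DESeq2, with 0 at an unadjusted p under 0.05, where 0.618% of all genes were called by edgeR, 3.43% by DESeq2 and 16.1% had an unadjusted p under 0.05. For the difference between the genotypes in their response, edgeR called 0 members (0% of all genes; 1 member and 17.8% of all genes at an unadjusted p under 0.05) and DESeq2 called 1, S100a4 (0.82% of all genes).

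**Figure D2:**
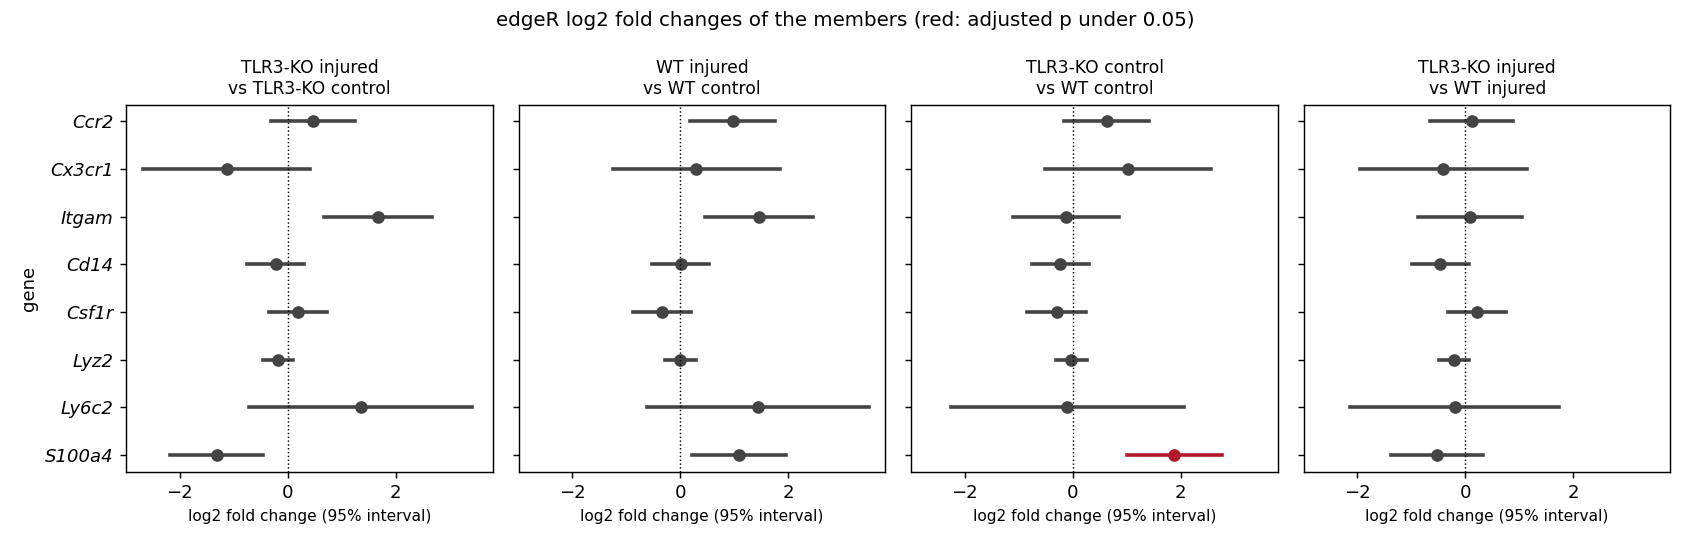
log2 fold change of each member in 4 comparisons, with its 95% interval from the edgeR fit; red marks an adjusted p under 0.05. S100a4 in TLR3-KO control against WT control is the only red point; Itgam lies to the right of 0 in both responses to pneumonia (1.67 in TLR3-KO and 1.46 in WT mice).

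Itgam, the alpha chain of the integrin Mac-1 that lets leukocytes crawl on endothelium and take up complement-coated bacteria, rose in pneumonia by 1.57 on the log2 scale over both genotypes (SE 0.332, adjusted p = 0.0224), a 2.96-fold difference. TLR3-KO injured libraries held 22.6, 10.04, 22.7 and 24.3 CPM, against 3.93, 4.27, 7.11 and 8.90 CPM in TLR3-KO controls. The lowest TLR3-KO injured library was still above the highest TLR3-KO control, as it was for 11.2% of all genes tested. WT injured libraries held 4.09, 23.6, 32.8 and 13.5 CPM, against 5.72, 4.30, 4.90 and 10.1 CPM in WT controls. Here the groups overlapped through WT injured 1 alone, which had less Itgam than any WT control. Within the genotypes the log2 fold change was 1.67 (SE 0.470, adjusted p = 0.0748; DESeq2 0.0073) in TLR3-KO mice and 1.46 (SE 0.468, adjusted p = 0.266) in WT mice, and the responses differed by 0.21 (95% interval -1.17 to 1.59). Leaving out 1 library at a time, the mean response was 1.36 to 1.73 and was called in 13 of 16 fits. It was lost without TLR3-KO injured 1 (adjusted p = 0.0512), without TLR3-KO injured 4 (0.0502) and without WT injured 3 (0.0528), and with TLR3-KO control 4 as the only TLR3-KO control it was 1.33 (adjusted p = 0.186).

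Markers of neutrophils, which carry Itgam too, were summed in the same libraries. Of 14 listed neutrophil genes, 13 were matched, and their sum was 256, 154, 183 and 257 CPM in TLR3-KO injured libraries, against 109, 98.1, 82.7 and 110.1 CPM in TLR3-KO controls. It was 102, 235, 329 and 142 CPM in WT injured libraries, against 93.8, 97.8, 54.5 and 93.9 CPM in WT controls. In each injured group the library lowest in Itgam was also the lowest in this sum. The control groups differed from this. WT control 2 was lowest of its group in Itgam and highest in the sum. Among TLR3-KO controls, library 1 was lowest in Itgam and library 3 lowest in the sum. Of the 11 neutrophil genes tested, edgeR called 4 in the mean response, all higher (2.34% of all genes were called), and DESeq2 called 7 (5.58%). An unadjusted edgeR p under 0.05 was reached by 7 (16.4% of all genes). All 11 values were positive, with a median log2 fold change of 1.12, against -0.001 for all genes. The edgeR calls included S100a8, a subunit of the calprotectin of neutrophil cytosol, higher by 1.69 (SE 0.354, adjusted p = 0.0219), and Lrg1 by 1.016 (SE 0.168, adjusted p = 0.00912). The others were Csf3r, the receptor for G-CSF, by 1.12 (SE 0.258, adjusted p = 0.0333) and Mrgpra2b by 3.74 (SE 0.864, adjusted p = 0.0336). With TLR3-KO control 4 as the only TLR3-KO control Lrg1 was still called (1.29, adjusted p = 0.047), and S100a8, Csf3r and Mrgpra2b were not (adjusted p = 0.196, 0.163 and 0.214). The granule genes Camp and Ngp, made in bone marrow precursors, were at 0 in 13 and 8 of 16 libraries. The share of neutrophil RNA in the Itgam difference was not tested, and in bulk libraries more cells of a type and more RNA per cell cannot be told apart.

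**Figure D3:**
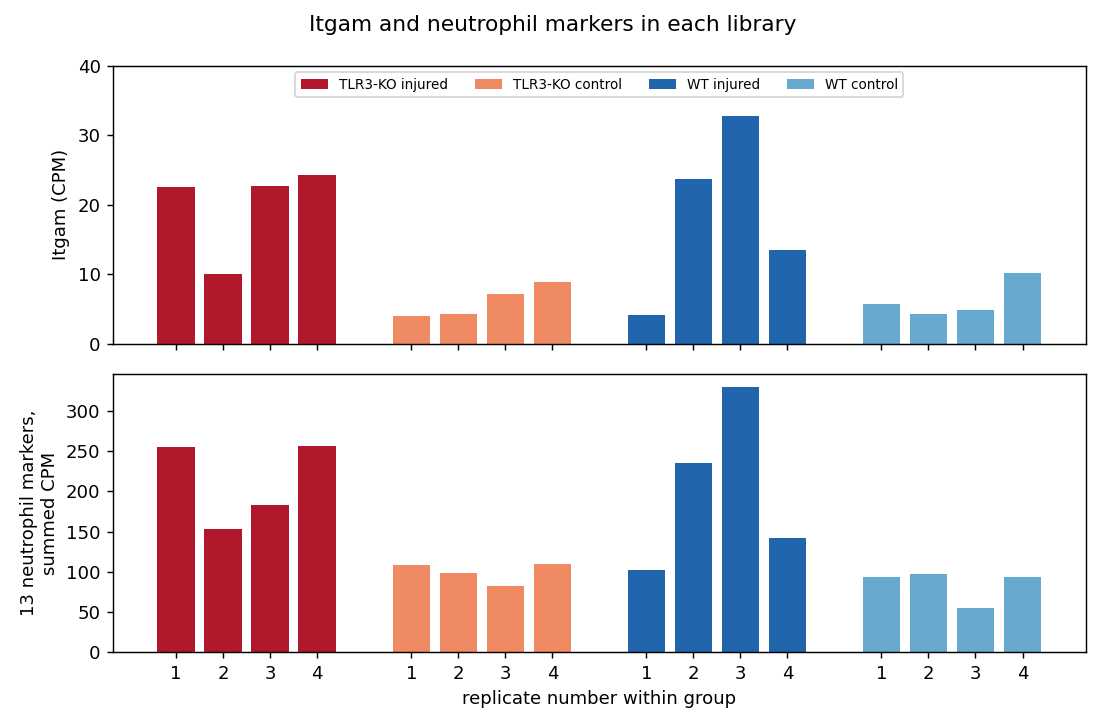
Itgam (top, CPM) and the summed CPM of 13 neutrophil markers (bottom) in each library, grouped as TLR3-KO injured, TLR3-KO control, WT injured and WT control, with bars from 0. WT injured 1 (4.09 CPM Itgam, 102 CPM markers) and TLR3-KO injured 2 (10.04 and 154 CPM) are each the lowest library of their own injured group in both panels.

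Without infection, S100a4 was higher in TLR3-KO than in WT macrophages. The 4 TLR3-KO control libraries had values of 2.70, 2.02, 8.20 and 3.31 CPM and the 4 WT control libraries 1.31, 1.05, 0.985 and 0.740 CPM. The groups did not overlap, as for 5.92% of all genes tested, which were higher in every TLR3-KO control. The log2 fold change was 1.88 (SE 0.415, 95% interval 1.001 to 2.76, adjusted p = 0.0497; DESeq2 0.000846). The call sits at the threshold: it was kept in 2 of 8 fits that left out 1 library and lost in the other 6. Without TLR3-KO control 3, the highest library, the log2 fold change was 1.29 (adjusted p = 0.105); without WT control 2 the adjusted p was 0.149, the highest of these fits. With TLR3-KO control 4 as the only TLR3-KO control it was 1.49 (adjusted p = 0.248). The size also depended on the replicate numbers used: it was 2.67 (adjusted p = 0.116) without controls 1 and 2 of both genotypes and 0.90 (adjusted p = 0.251) without controls 3 and 4. Libraries with the same replicate number deviated together in these 2 groups, and a fit of them alone with the number as a block gave 1.71 (adjusted p = 0.0256), while a fit of all 16 libraries with that block gave 1.87 (adjusted p = 0.0714).

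In pneumonia the estimated S100a4 response was negative in TLR3-KO and positive in WT mice, and neither passed the edgeR test. TLR3-KO injured libraries held 1.76, 2.199, 1.08 and 1.72 CPM, and the log2 fold change against the TLR3-KO controls above was -1.31 (SE 0.405, adjusted p = 0.0928; DESeq2 0.0254). WT injured libraries held 3.93, 2.0995, 1.92 and 1.61 CPM, all above the WT controls, as for 3.83% of all genes, with a log2 fold change of 1.09 (SE 0.413, adjusted p = 0.365). The difference between them was -2.40 (SE 0.578, 95% interval -3.63 to -1.17), which did not pass over all genes in edgeR (adjusted p = 0.235) and passed in DESeq2 (0.0174). The TLR3-KO response was -0.72 (adjusted p = 0.308) without TLR3-KO control 3, -1.79 (adjusted p = 0.00838) without controls 1 and 2 of both genotypes, -0.59 (adjusted p = 0.422) without controls 3 and 4, and -0.92 (adjusted p = 0.236) with TLR3-KO control 4 as the only TLR3-KO control. In that last setting the difference of responses was also negative and not called (SE 0.565, adjusted p = 0.162). In injured mice the genotypes were closer, with a log2 fold change of -0.52 for TLR3-KO injured against WT injured (SE 0.405, adjusted p = 0.531).

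Its neighbours in the S100 family gave values for comparison. S100a6 averaged 8.80 ± 5.80 CPM in TLR3-KO controls and 2.72 ± 0.184 CPM in WT controls (SD, n = 4 each), a log2 fold change of 1.61 (SE 0.377) that just missed the threshold (adjusted p = 0.0568; 1.41 and 0.234 with TLR3-KO control 4 alone). S100a10 averaged 185 ± 22.1 and 138 ± 30.1 CPM in the same groups and S100a11 617 ± 141 and 474 ± 102 CPM (SD, n = 4), with adjusted p-values of 0.366 and 0.379. The 10 listed dendritic cell genes summed to 23.9 to 37.8 CPM in TLR3-KO controls and 12.1 to 22.2 CPM in WT controls. Of the 9 tested, edgeR called 0 (0.699% of all genes) and DESeq2 called 2 (6.28%). An unadjusted edgeR p under 0.05 was reached by 4 (19.9% of all genes). Cd209a was at 0 in 2 of 16 libraries. The part of dendritic cell RNA in the S100a4 difference was not tested. Of the 21 tested genes of monocyte-derived and interstitial macrophages, 1 was called between the controls by edgeR (0.699% of all genes) and 5 by DESeq2 (6.28%). An unadjusted edgeR p under 0.05 was reached by 11 (19.9% of all genes), 10 of them higher in TLR3-KO controls. The list had a median log2 fold change of 0.60 there, against 0.039 for all genes, with 17 of 21 values positive. The edgeR call was Apoe, the lipid-carrying apolipoprotein, higher in TLR3-KO controls by 1.14 (SE 0.220, adjusted p = 0.034). Apoe fell in TLR3-KO injured against TLR3-KO control libraries by 1.24 on the log2 scale (SE 0.221, adjusted p = 0.0279). With TLR3-KO control 4 as the only TLR3-KO control these Apoe values were 0.58 (adjusted p = 0.274) and -0.68 (adjusted p = 0.139).

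Markers of T cells, B cells and red cells were also compared between the groups. All 11 tested T cell genes had positive log2 fold changes in TLR3-KO control against WT control (median 1.09) and negative ones in TLR3-KO injured against TLR3-KO control (median -1.46), with a median of -1.91 for the difference of responses. The 11 matched T cell genes summed to 6.75 to 13.2 CPM in TLR3-KO injured and 6.59 to 28.4 CPM in TLR3-KO control libraries, and to 8.81 to 13.8 CPM in WT injured and 4.55 to 20.8 CPM in WT control libraries. EdgeR and DESeq2 called 0 of them in these 3 comparisons. At an unadjusted edgeR p under 0.05 there were 1, 5 and 2 (19.9%, 24% and 17.8% of all genes). The 4 tested B cell genes had medians of 1.22, -1.16 and -1.26 in the same 3 comparisons, with 0 calls by edgeR or DESeq2. The 6 tested erythroid genes had a median of 2.45 in WT injured against WT control. There 5 of 6 were higher in every WT injured library than in any WT control, as for 3.83% of all genes. Their median was -0.63 in TLR3-KO injured against TLR3-KO control and -2.97 for the difference of responses. The 7 matched erythroid genes summed to 73.2 to 199 CPM in TLR3-KO injured and 41.3 to 494 CPM in TLR3-KO control libraries, and to 331 to 709 CPM in WT injured and 11.4 to 151 CPM in WT control libraries. EdgeR called 0 erythroid genes in these 3 comparisons, with 5, 0 and 5 at an unadjusted p under 0.05 (10.7%, 24% and 17.8% of all genes). DESeq2 called 1 in WT mice (1.19% of all genes) and 0 in the other 2 comparisons. Hba-a1 was at 0 in all 16 libraries. Within each group, the library highest in S100a4 was highest in neither the T cell nor the erythroid sum. WT control 4 had the largest T cell and erythroid sums of its group (20.8 and 151 CPM) and its smallest S100a4 value (0.740 CPM). TLR3-KO control 2 was lowest of its group in S100a4 and in the T cell and erythroid sums. WT injured 4 was lowest of its group in S100a4 and in the T cell sum. The part of T cell, B cell or red cell RNA in the S100a4 values was not tested.

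Both chemokine receptors were scarce and neither passed the edgeR test of the 16 libraries. Ccr2, which brings monocytes to its ligands CCL2 and CCL7, held 3.79, 4.19, 2.22 and 2.97 CPM in TLR3-KO injured and 1.59, 1.77, 3.56 and 2.25 CPM in TLR3-KO control libraries. It held 1.53, 3.65, 1.92 and 4.73 CPM in WT injured and 1.81, 0.868, 1.11 and 1.81 CPM in WT control libraries. The groups overlapped in both genotypes, and the mean response was 0.72 (SE 0.261, 95% interval 0.17 to 1.27, adjusted p = 0.169).

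Cx3cr1, which binds fractalkine and marks patrolling monocytes and some interstitial macrophages, held 0.965, 0.930, 0.809 and 0.626 CPM in TLR3-KO injured libraries, against 2.25, 0.737, 0.717 and 3.36 CPM in TLR3-KO controls. WT injured libraries held 0.129, 0.994, 0.526 and 2.59 CPM, against 1.17, 0.274, 0.271 and 1.56 CPM in WT controls. Its spread within groups was wide, with 20.02-fold between the highest and the lowest WT injured library, and its mean response was -0.42 (95% interval -1.50 to 0.67, adjusted p = 0.749). The controls split by replicate number: 1 and 4 were high and 2 and 3 low in both genotypes. Within each number the TLR3-KO control had more Cx3cr1 than the WT control, by 1.92-, 2.69-, 2.65- and 2.15-fold for numbers 1 to 4. The log2 fold change between the control groups was 1.03 (SE 0.725, adjusted p = 0.436) without the block and 1.09 (SE 0.232, adjusted p = 0.0252) in the fit of these groups alone with the block, but 1.04 (adjusted p = 0.353) with the block over all 16 libraries and 1.86 (adjusted p = 0.326) with TLR3-KO control 4 as the only TLR3-KO control. The 5 matched B cell genes summed to 14.1, 4.78, 1.75 and 40.5 CPM in TLR3-KO controls, against 2.72, 0.251, 0.911 and 23.1 CPM in WT controls, again highest in numbers 1 and 4, with Pax5 at 0 in 8 of 16 libraries. Their part in the Cx3cr1 values was not tested.

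**Figure D4:**
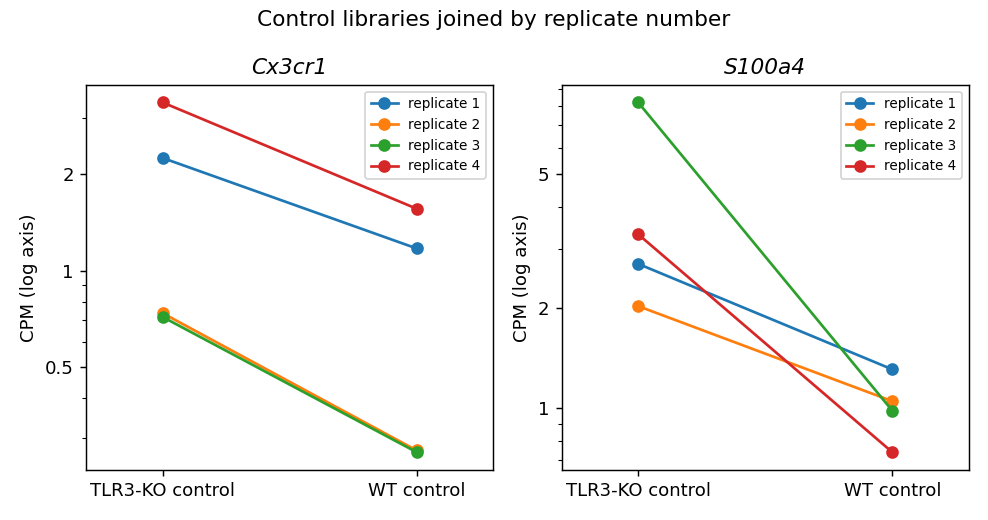
Cx3cr1 (left panel) and S100a4 (right panel) in control libraries, on log axes, with lines joining the TLR3-KO control (left) and WT control (right) of the same replicate number. All 4 lines fall toward WT in each panel; the Cx3cr1 ratios are 1.92 to 2.69 and the S100a4 ratios 1.92 to 8.33.

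Cd14 and Csf1r, receptors of mononuclear phagocytes, did not pass the test in any comparison. Cd14 held 458, 276, 302 and 493 CPM in TLR3-KO injured and 393, 344, 600 and 367 CPM in TLR3-KO control libraries. It held 532, 503, 667 and 362 CPM in WT injured and 532, 583, 377 and 379 CPM in WT control libraries. The largest of its log2 fold changes was -0.46, for TLR3-KO injured against WT injured (95% interval -0.98 to 0.07, adjusted p = 0.369). Csf1r held 625, 627, 626 and 498 CPM in TLR3-KO injured and 529, 643, 439 and 368 CPM in TLR3-KO control libraries. It held 281, 517, 565 and 631 CPM in WT injured and 724, 661, 403 and 515 CPM in WT control libraries. The groups overlapped for both genes in every comparison, and the mean responses were -0.11 (95% interval -0.48 to 0.27) for Cd14 and -0.07 (95% interval -0.45 to 0.31) for Csf1r.

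Lyz2 was the steadiest member. It took 2.68% to 3.85% of all counts and ranked between 1 and 3 among the genes of every library. It averaged 29739 ± 2965 CPM in TLR3-KO injured, 31967 ± 4798 in TLR3-KO control, 33565 ± 1383 in WT injured and 30797 ± 3299 in WT control libraries (SD, n = 4 each). The mean response was -0.08 with a 95% interval of -0.28 to 0.12, the narrowest of the 8 members. Lyz1, the neighbouring gene for the lysozyme of Paneth cells, is a near copy, and 15.4% of the 50-base windows of Lyz2 transcripts also occur in Lyz1, so part of its reads could be assigned to either gene. Lyz2 had 12.3 to 15.96 times the counts of Lyz1. Lyz1 was also the gene whose profile over the libraries lay closest to that of Lyz2. The part of shared reads in this likeness was not tested. Upstream sequence of the pair, from 150 to 51 bases before each RefSeq start (GRCm38.p6, - strand), is shown for comparison. Of the 100 positions, 79 are identical without gaps.
Lyz2, chr10:117282323-117282422: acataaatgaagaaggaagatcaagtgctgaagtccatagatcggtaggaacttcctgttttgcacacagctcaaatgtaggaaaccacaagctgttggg
Lyz1, chr10:117292919-117293018: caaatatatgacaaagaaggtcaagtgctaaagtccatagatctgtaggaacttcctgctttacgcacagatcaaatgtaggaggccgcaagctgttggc
Neither window holds GAGGAA or its reverse complement.

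Ly6c2 encodes the Ly6C surface protein of classical monocytes and was near the limit of detection. It held 0.635, 0.211, 0.337 and 1.51 CPM in TLR3-KO injured libraries, against 0.261, 0.0421, 0.0211 and 0.713 CPM in TLR3-KO controls. It held 0.155, 1.35, 0.548 and 0.964 CPM in WT injured libraries, against 0.218, 0.0228, 0.0492 and 0.795 CPM in WT controls. The groups overlapped in both genotypes. The mean response of 1.40 had a 95% interval of -0.06 to 2.85 (adjusted p = 0.328), the widest of the 8. Of its 50-base windows, 30.8% also occur in Ly6c1, which averaged 0.326, 0.114, 0.0739 and 0.0130 CPM in TLR3-KO injured, TLR3-KO control, WT injured and WT control libraries, so the split of counts between the pair is uncertain.

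The spread between replicates differed as widely as the levels. The biological coefficient of variation of the fit was 0.149 for Lyz2, 0.251 for Cd14, 0.257 for Csf1r, 0.360 for Ccr2, 0.394 for S100a4, 0.445 for Itgam, 0.691 for Cx3cr1 and 0.923 for Ly6c2, against a common value of 0.238. Of all genes tested, 25.7% had a lower value than Lyz2, and 99.5% had a lower one than Ly6c2.

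The ligands and partner chains of the members were followed alongside. Of 17 listed, 13 passed the filter. In TLR3-KO injured against TLR3-KO control, 7 of these had an unadjusted edgeR p under 0.05 (24% of all genes), 5 of them higher, and DESeq2 called 1 (7.96%). In WT injured against WT control 2 had an unadjusted p under 0.05, both lower (10.7% of all genes), and DESeq2 called 0. Over the 6 comparisons edgeR made 1 call. Adam17, the sheddase that releases fractalkine and other surface proteins, was lower in TLR3-KO control than in WT control libraries by 0.98 on the log2 scale (log2 fold change -0.98, SE 0.199, adjusted p = 0.039), with 259, 345, 216 and 262 CPM in TLR3-KO controls, against 612, 573, 382 and 449 CPM in WT controls. With TLR3-KO control 4 alone it was -1.14 (adjusted p = 0.234). Csf1, a ligand of Csf1r, gave the largest value in the mean response, 1.81 (adjusted p = 0.14); TLR3-KO injured libraries held 116, 30.4, 49.5 and 132 CPM, against 23.5, 32.1, 1.94 and 5.06 CPM in TLR3-KO controls. WT injured libraries held 27.9, 52.8, 123 and 32.8 CPM of Csf1, against 30.8, 39.5, 2.07 and 11.7 CPM in WT controls, so controls 3 and 4 were the low ones in both genotypes. Ccl2 and Ccl7, the ligands of Ccr2, averaged 6.23 and 0.905 CPM in TLR3-KO injured, 2.95 and 0.626 in TLR3-KO control, 7.56 and 1.604 in WT injured and 2.89 and 0.442 in WT control libraries, with adjusted p-values of 0.477 and 0.408 for the mean response. Cx3cl1 (fractalkine) and its other sheddase Adam10 had mean responses of -0.20 and 0.12, Itgb2, the beta chain that pairs with Itgam, -0.12, and the Itgam ligands Icam1 and C3 0.015 and 0.54, none of them called. Tlr4 and Ly96, which receive lipopolysaccharide from Cd14, had 0.28 and -0.39, and the adaptors Tyrobp and Flna -0.19 and 0.46, again without a call. Ccl8, Ccl12, Il34 and Lbp stayed below the filter.

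Other lists tied to the monocyte lineage gave few calls. Of the 21 tested genes of monocyte-derived and interstitial macrophages, edgeR called 1 in the mean response, where 2.34% of all genes were called. This was Apoe, at -0.63 (adjusted p = 0.0452), or -0.35 with TLR3-KO control 4 as the only TLR3-KO control. On that list 6 had an unadjusted edgeR p under 0.05 (16.4% of all genes), 5 of them lower, and DESeq2 called 3 (5.58%). Its median was -0.16, against -0.001 for all genes. Of 16 regulators of myeloid fate, 1 was called in the mean response: Klf2 rose by 0.88 (SE 0.219, adjusted p = 0.047), with a median of -0.15 over the list; with TLR3-KO control 4 alone Klf2 was at 0.55 (adjusted p = 0.26). The 13 classical monocyte genes, which include Ccr2 and Ly6c2, had 0 calls in any comparison by edgeR and a median mean response of 0.52; 2 had an unadjusted p under 0.05 there and DESeq2 called 1. Their lowest p-values outside the members were those of Hp (haptoglobin), at 1.14 (adjusted p = 0.0977), and Clec4a1, at -0.37 (adjusted p = 0.351). The list summed to 1171 to 1833 CPM in TLR3-KO injured and 815 to 1275 CPM in TLR3-KO control libraries, and to 799 to 1394 CPM in WT injured and 752 to 1092 CPM in WT control libraries, with Fn1 (fibronectin) its most abundant gene at 286 to 1450 CPM. The 10 nonclassical monocyte genes had 0 edgeR calls (1 at an unadjusted p under 0.05 in the mean response, 0 DESeq2 calls), with Treml4 at -0.49 (adjusted p = 0.246) and Eno3 at 0.25 (adjusted p = 0.417) lowest in p. The 23 resident alveolar macrophage genes also had 0 edgeR calls. In the mean response 7 had an unadjusted edgeR p under 0.05 (16.4% of all genes), 5 of them lower, and DESeq2 called 3 (5.58%). Pparg, the nuclear receptor that directs alveolar macrophage development, came closest to an edgeR call at -0.35 (SE 0.088, adjusted p = 0.0512). Lpl (lipoprotein lipase) followed at -0.23 (adjusted p = 0.0846). Clec9a, a receptor of cross-presenting dendritic cells, fell by 1.45 in TLR3-KO injured against TLR3-KO control libraries (adjusted p = 0.0374), and its value was -1.22 (adjusted p = 0.132) with TLR3-KO control 4 alone.

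Likeness between genes was measured as the root mean square difference of standardised log2 CPM over the same 16 libraries and their depths, where 0 means identical profiles. The closest pair of members was Itgam and Ly6c2 at 0.743, where 183 genes lay nearer to Itgam, and then Cd14 and Lyz2 at 0.854, so the 8 genes did not form a single profile. Closest to Itgam were 2010002M12Rik (0.253), the zinc transporter gene Slc39a4 (0.301) and Upp1, uridine phosphorylase (0.303). Upp1 shows the shared shape, with 6.42, 0.613, 2.19 and 9.23 CPM in TLR3-KO injured libraries, against 0.0711, 0.0631, 0.0843 and 0.276 CPM in TLR3-KO controls. WT injured libraries held 0.207, 4.34, 14.0 and 2.93 CPM of Upp1, against 0.235, 0.0457, 0.0492 and 0.466 CPM in WT controls. WT injured 1 was again at the level of the controls. Among the genes closest to Ly6c2 were Plac8 (0.464) and Mmp9 (0.488). Closest to Cx3cr1 were Blnk (0.475), Cd55 (0.494) and Fcrla (0.509), of which Blnk and Fcrla are known from B cells, and closest to S100a4 were H2-DMb1 (0.486), Fam43a (0.513) and Selm (0.522). Ccr2 had no near neighbour, with Bbs12 at 0.630, Batf2 at 0.689 and Mlkl at 0.695. Cd14 lay closest to Trem3 (0.511), Rab12 (0.527) and Tmem183a (0.583), Csf1r to Dhx38 (0.279), Stat3 (0.323) and Ap2a1 (0.360), and Lyz2 to Lyz1 (0.407), Slpi (0.508) and Ms4a8a (0.579).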

How the data were processed

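Paired-end 50-base TruSeq mRNA libraries of lavage macrophages were made after RNA extraction with the Qiagen RNeasy Mini kit, per the labels' protocols. Per the submitters' processing notes, FastQC 0.11.3, TopHat2 2.0.13, Bowtie2 2.2.1, Cufflinks and Cuffdiff 2.1.1 were used with genome build mm10; the roles of the tools, the HTSeq version, the annotation and the strand setting are not given in the sources used here. The deposited values are raw HTSeq counts per gene symbol, made by the authors, in 1 table whose 16 columns were matched to the labels by name (the design text speaks of 15 samples). No replicate pair agreed within sampling noise.

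From the counts, CPM was computed over each library's total, and edgeR 4.0.16 (R 4.3.3; filterByExpr with a minimum count of 10, TMM factors of 0.896 to 1.067, glmQLFit and glmQLFTest with default settings) was fitted to all 4 groups, removing 10704 genes and testing 12455. The script was checked on simulated counts. Alternatives were DESeq2 1.42.0 (size factors), RLE factors, no filter or a stricter one (at least 5 CPM in 4 libraries), a fit restricted to the groups compared, blocking on replicate number, single libraries or pairs of controls left out, and, added after seeing the data, robust dispersions, the block within the control groups alone and TLR3-KO control 4 as the only TLR3-KO control for genes other than the members. Replicate numbers were checked for pairing by the correlation of deviations from group means: same-numbered TLR3-KO and WT controls gave 0.48 to 0.60, so the numbers were taken as pairs there. The other comparisons gave -0.34 to 0.34. Positions come from GENCODE M21 and promoters from RefSeq (GRCm38.p6). The members and gene lists were chosen with earlier results of these data known. The text names all 8 members, all tested partners, up to 4 called genes of each other list (or those of lowest p), and the 3 genes of most similar profile, of which 1 is not reported here. Intervals cover 95%. Depth limits Ly6c2 and Cx3cr1 most.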

Additional observations from a re-analysis of the deposited data

Results flagged for a closer look

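Among 32 sets of 4 libraries (8 genes in 4 groups), 3 held a library set apart from the other 3 by Dixon's test at the 95% level, which chance gives in about 1 of 20. Itgam in TLR3-KO injured 2 was 10.04 CPM, against 22.6 to 24.3 CPM in the other TLR3-KO injured libraries (gap over range 0.88). Csf1r in TLR3-KO injured 4 was 498.5 CPM, against 625 to 627 CPM in the others (0.981). Lyz2 in WT injured 3 was 31504 CPM, against 34096 to 34471 CPM in the others (0.873), within a group whose SD was small. The response of S100a4 to pneumonia differed between the genotypes by -2.40 on the log2 scale (TLR3-KO minus WT); all 4 WT injured libraries were above all WT controls, while the TLR3-KO response was negative, and the test of the difference gave an adjusted p of 0.235 in edgeR.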

How the results depend on the processing

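Of 926 recomputed values, 827 kept both direction and side of the threshold, 17 lost a call, 6 gained one and 76 changed sign; none of those that changed sign was called. The count of called members in TLR3-KO injured against TLR3-KO control (0) became 2 with DESeq2 and 1 without controls 1 and 2, and 0 to 1 leaving out single libraries. In TLR3-KO control against WT control (1) it became 0 without a filter, with the stricter filter (which removes S100a4), in the fit of 2 groups, with the replicate block over all libraries, with robust dispersions, with TLR3-KO control 4 as the only TLR3-KO control, and without controls 1 and 2 or 3 and 4; it became 2 in the 2-group fit with the replicate block, and 0 to 1 leaving out single libraries. In the mean response (1) it became 0 with TLR3-KO control 4 alone, and 0 to 1 leaving out single libraries. In the difference of responses (0) it became 1 with DESeq2. The cause was not tested. The replicate block changed no other member's call.

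Signs that changed, as log2 fold changes, were all of values near 0 or poorly measured. In WT injured against WT control, Cd14 became -0.0032 with RLE factors, -0.0011 with the block, -0.0068 with DESeq2 and -0.30 without controls 3 and 4, Lyz2 became -0.0068, -0.00013 (no filter), -0.0013 (2 groups), -0.01 (DESeq2) and -0.054 (without controls 3 and 4), and Csf1r 0.078 without controls 1 and 2. With TLR3-KO control 4 alone, TLR3-KO injured against TLR3-KO control gave 0.10 for Cd14, 0.16 for Lyz2 and -0.035 for Ly6c2, TLR3-KO control against WT control 0.35 for Itgam and 1.29 for Ly6c2, the mean response 0.054 for Cd14, 0.20 for Csf1r, 0.083 for Lyz2 and 0.082 for S100a4, and the difference of responses -0.26 for Itgam, 0.096 for Cd14 and 0.16 for Lyz2. Without controls 1 and 2, TLR3-KO control against WT control gave 0.028 for Itgam, 0.29 for Cd14 and 0.02 for Lyz2, the mean response 0.021 for Cd14 and 0.31 for Csf1r, and the difference 0.073 for Ly6c2. Without controls 3 and 4, Csf1r was -0.09 in TLR3-KO injured against TLR3-KO control, Ly6c2 0.10 in TLR3-KO control against WT control, S100a4 0.12 in the mean response and Cd14 0.24 in the difference. With the stricter filter, Lyz2 was 0.0055 in TLR3-KO control against WT control.

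Leaving out 1 library at a time, TLR3-KO injured against WT injured ranged from -0.24 to 0.50 for Itgam, -0.088 to 0.46 for Ccr2, -0.76 to 0.59 for Cx3cr1 and -0.95 to 0.22 for Ly6c2. TLR3-KO control against WT control ranged from -0.32 to 0.14 for Itgam, -1.29 to 1.12 for Ly6c2 and -0.12 to 0.072 for Lyz2. WT injured against WT control ranged from -0.12 to 0.16 for Cd14, -0.69 to 0.71 for Cx3cr1 and -0.088 to 0.062 for Lyz2. The mean response ranged from -0.15 to 0.023 for Csf1r and -0.29 to 0.18 for S100a4, and the difference of responses from -0.12 to 0.62 for Itgam and -1.31 to 1.10 for Ly6c2. Ly6c2, with as few as 1 count in a library, is limited by depth.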
